A study of Mus musculus with 8 samples.

Results

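The growth hormone receptor, STAT5 and IGF1 axis was examined in mouse liver through 10 genes known for their roles in it, which were looked up by symbol among the 17164 genes of an RNA sequencing table. They are Ghr, Stat5a, Stat5b, Igf1, Igfals, Cish, Socs2, Socs3, Bcl6 and Cux2. All 10 were in the table, and 9 of them reached the level needed for testing, as 11606 genes did (an FPKM, a read level scaled to gene length and library depth, of at least 1 in at least 2 libraries). Cux2 did not.

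The libraries came from whole livers of male C57BL/6 mice, 2 mice from each of 4 groups of 6 (24 mice in all), picked at random and killed at 22 weeks of age. Control mice were given saline in place of diethylnitrosamine (DEN), a carcinogen that hepatocytes activate; what they received in place of carbon tetrachloride is not given in the sources used here. Model mice (labelled DEN+CCl4) were injected in the abdomen with 0.67% DEN when 2 weeks old and, in 2 doses a week from 8 weeks of age until they were killed, carbon tetrachloride (CCl4, a hepatotoxin that causes repeated injury and scarring; 20% in olive oil) by the same route. DWYG-M and DWYG-H mice had the same DEN and CCl4 and, from 17 weeks of age, Diwu Yanggan capsules, a herbal preparation, at 1 (DWYG-M) or 2 (DWYG-H) times the clinical equivalent dose. All mice were therefore male and of 1 strain, and both capsule groups carried the full model treatment. Whether the liver pieces held tumour, and when in the day the mice were killed, is not given in the sources used here.

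Growth hormone is released by the pituitary in pulses and binds its receptor GHR on hepatocytes, where the kinase JAK2 phosphorylates the transcription factors STAT5A and STAT5B. STAT5 then enters the nucleus and switches on genes that include Igf1, whose product is the main circulating mediator of growth, and Igfals, whose product holds IGF1 in a stable serum complex. It also switches on Cish and Socs2, whose products damp the receptor's own signal, and it represses Bcl6, a repressor that binds many of the same DNA sites. The pattern of the pulses differs between the sexes in rodents, and STAT5B, BCL6 and CUX2, a repressor typical of female liver, are known for their part in the sex differences of liver gene expression.

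STAT5 binds the palindrome TTCNNNGAA. It reads the same on both strands, and it was searched in RefSeq promoter windows of 300 bases (250 before a gene's start to 50 after it, GRCm38.p6), overlapping matches allowed. Of the 10 genes, 9 had such windows, 16 in all, and Socs2 had none in the table. The motif lay in 6 of the 16, belonging to 4 genes (Cish, Bcl6, Socs3 and Igfals), and in 8.3% of all 32851 windows. Windows with at least 2 matches were those of Cish and of the second Bcl6 start, against 0.457% of all windows. The windows of Cish and Bcl6, which have replicate differences described below, and that of Socs3 are shown 5′ to 3′ on the gene's strand, with the motif in capitals: Cish at chr9:107296409-107296708 (+ strand), Bcl6 start 1 at chr16:23988803-23989102 (− strand), Bcl6 start 2 at chr16:23981234-23981533 (− strand) and Socs3 at chr11:117969317-117969616 (− strand).
Cish: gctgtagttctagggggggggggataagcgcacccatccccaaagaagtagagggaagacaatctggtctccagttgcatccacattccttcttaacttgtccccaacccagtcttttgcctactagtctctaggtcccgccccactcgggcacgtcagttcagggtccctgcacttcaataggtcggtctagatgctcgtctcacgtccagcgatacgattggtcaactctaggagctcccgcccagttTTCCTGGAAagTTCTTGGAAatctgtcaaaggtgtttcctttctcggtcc
Bcl6 start 1: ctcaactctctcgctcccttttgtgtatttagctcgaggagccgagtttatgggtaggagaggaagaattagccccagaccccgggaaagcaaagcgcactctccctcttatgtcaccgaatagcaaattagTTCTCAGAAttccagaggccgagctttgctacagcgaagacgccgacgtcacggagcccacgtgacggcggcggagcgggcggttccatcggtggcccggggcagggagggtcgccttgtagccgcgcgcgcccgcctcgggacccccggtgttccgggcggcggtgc
Bcl6 start 2: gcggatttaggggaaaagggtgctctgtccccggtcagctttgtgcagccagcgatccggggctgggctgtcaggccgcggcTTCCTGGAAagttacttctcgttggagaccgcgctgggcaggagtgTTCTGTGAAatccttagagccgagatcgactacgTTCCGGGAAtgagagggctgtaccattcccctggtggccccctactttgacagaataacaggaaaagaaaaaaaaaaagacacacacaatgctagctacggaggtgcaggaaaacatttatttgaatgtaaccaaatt
Socs3: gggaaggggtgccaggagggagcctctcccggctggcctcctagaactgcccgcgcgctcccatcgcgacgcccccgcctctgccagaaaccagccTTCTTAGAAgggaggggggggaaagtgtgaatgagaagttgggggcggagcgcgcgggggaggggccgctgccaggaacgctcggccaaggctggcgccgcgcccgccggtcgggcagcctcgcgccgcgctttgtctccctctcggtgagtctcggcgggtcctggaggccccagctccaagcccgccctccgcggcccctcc
In Cish, the pair of matches, TTCCTGGAA and TTCTTGGAA, began 1 and 12 bases after the start. The second Bcl6 start had TTCCTGGAA, TTCTGTGAA and TTCCGGGAA, which began 168, 122 and 88 bases before it. Igfals had 1 match in each of 2 windows, TTCTCAGAA beginning 236 and TTCCTAGAA beginning 58 bases before the start. These are matches of letters and were not measured as bound sites.

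Sequencing depth was alike, with 17345627 to 19191382 expected counts per library. Hepatocyte genes were abundant in all 8 libraries: the summed FPKM of 10 hepatocyte markers such as Alb ran from 73797 to 109791. The range of the model livers spanned those of the other groups. The control sums (74440 to 79771) lay below those of DWYG-M (83594 to 102311) and DWYG-H (93296 to 100913). Libraries of 1 group differed from each other most in the model group, where the correlation of log2 expression across genes was 0.961, against 0.978 to 0.984 in the others. Fold changes below are log2 values from edgeR's quasi-likelihood test on counts scaled by TMM, a scaling that assumes most genes do not change, with the standard error (SE) and a Benjamini-Hochberg adjusted p over all 11606 genes, called at an adjusted p under 0.05. FPKM values carry no such scaling, so a ratio of FPKM values can differ from the fitted fold change. Each group is 2 mice, so a group's own spread is that between 2 animals. The SE and p come from 1 fit of all 8 libraries, in which the groups share their estimate of spread. A gap between the 2 livers of any group therefore also enters comparisons that leave that group out. In whole liver, fewer cells of a type and less RNA per cell cannot be told apart.

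Within a library, Ghr was the most abundant of the 10 genes per length and Cux2 the least. In control livers the mean FPKM ran from 212 ± 11.9 (SD, n = 2) for Ghr through 93.3 for Igf1, 50.6 for Igfals, 10.5 for Stat5b, 8.81 for Bcl6, 5.73 for Socs2, 4.43 for Cish, 3.48 for Stat5a and 2.38 for Socs3 to 0.03 for Cux2. The first 3 stood apart from each other and from the rest, whereas neighbours from Stat5b to Stat5a overlapped between the 2 livers. The top of the order, Ghr, Igf1 and Igfals, was the same in every group, although the lower Ghr library of the model group (52.25) was under the higher Igf1 library (70.78). Bcl6 moved most in rank: it was rank 9 of the 10 in the model group and rank 4 in DWYG-H.

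**Figure D1:**
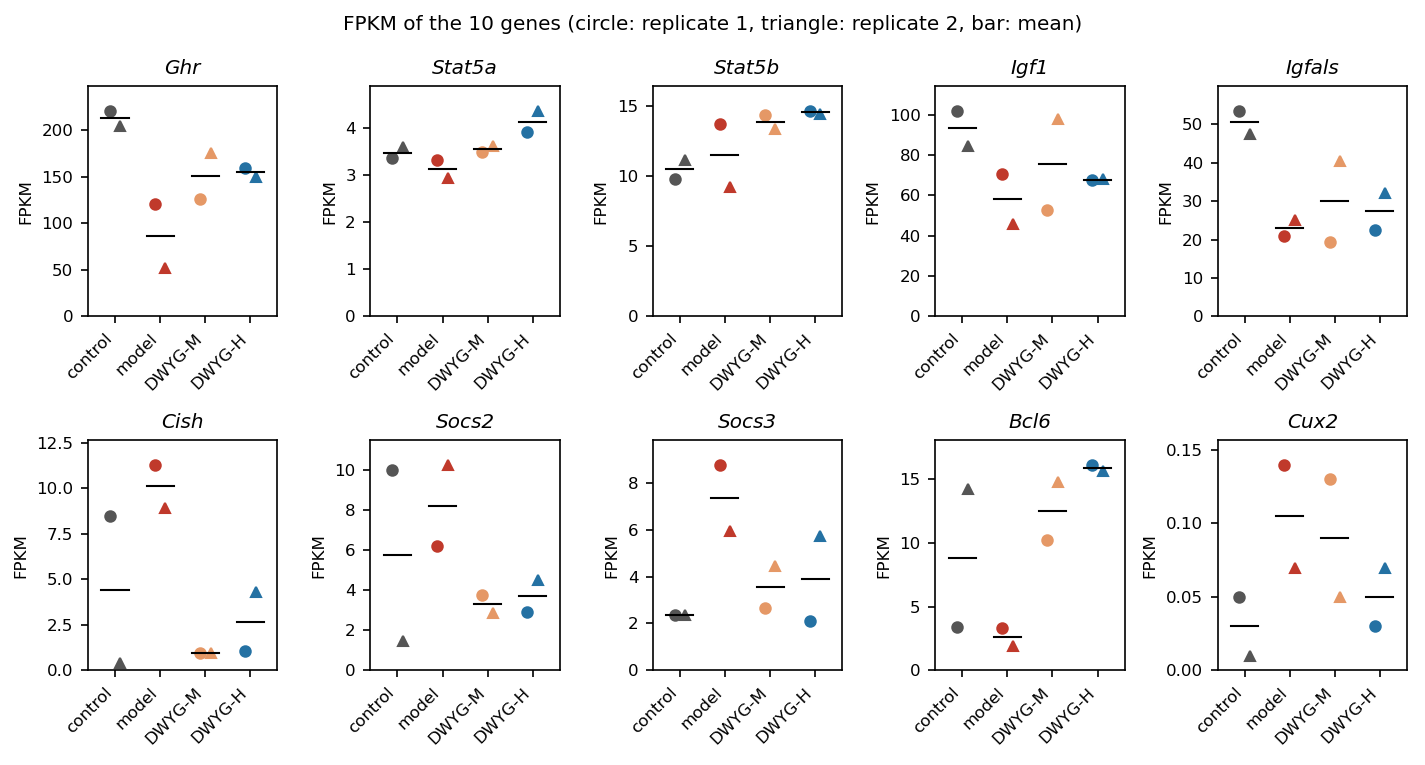
FPKM of each of the 10 genes in the 8 libraries, by group, with a circle for replicate 1, a triangle for replicate 2 and a bar at their mean. Ghr and Igfals sit lower in both model livers than in both control livers, while Cish spans 0.40 to 8.45 within the control group alone.

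The first comparison, model against control, asks what DEN and CCl4 left of the axis. Of the 9 tested genes, 3 fell (Ghr, Igfals and Bcl6; 33.3%) and 0 rose, where 22.2% of all 11606 genes were called (2582 genes; 7.12% lower and 15.1% higher), so the members' share is not far above the background. Over all genes, 68.0% of the calls were higher. That split depended on the scaling: 91.7%, 92.1% and 97.5% of calls were higher on log2(FPKM + 1), log2(FPKM + 0.1) and log2(TPM + 1), and 80.5% when only these 4 libraries were fitted. The median log2 fold change of the 9 genes was -0.41, against -0.01 over all tested genes.

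Ghr, the receptor, had an FPKM of 220.73 and 203.96 in control livers and 120.06 and 52.25 in model livers. Both model livers lay below both controls, as they did for 11.9% of all tested genes in FPKM. They differed from each other by more than the controls did. The fitted log2 fold change of Ghr was -1.54, a fall (SE 0.33, adjusted p = 0.0155, edgeR). The DWYG-M livers had 126.46 and 175.75 and the DWYG-H livers 158.75 and 150.08, all 4 above the model livers and below the controls. For 7.05% of all tested genes, all 4 capsule livers lay above both model livers in FPKM. Both DWYG-M livers lay below both controls for 7.98% of all tested genes, and both DWYG-H livers for 10.3%. The fall was called with either model liver left out (-1.12 without model replicate 2 and -2.12 without model replicate 1) but not without control replicate 1 (adjusted p = 0.0646) or 2 (adjusted p = 0.0613).

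The STAT5 genes changed less. Stat5b, the main STAT5 of hepatocytes, had an FPKM of 9.80 and 11.16 in control livers and 13.71 and 9.24 in model livers. With the capsules it was 14.36 and 13.36 at the lower dose (DWYG-M) and 14.65 and 14.42 at the higher (DWYG-H). Its groups overlapped between control and model, and its fitted difference was -0.16 (SE 0.18, adjusted p = 0.579, edgeR). Stat5a, its close paralog, lay between 2.94 and 4.37 in all 8 libraries, with a difference of -0.41 (SE 0.16, adjusted p = 0.0999, edgeR). These were the only 2 of the 10 genes with fractional counts, meaning that reads were shared out between genes, so their split is uncertain. The sign of Stat5b turned on FPKM (0.10 on log2(FPKM + 1), 0.11 on log2(FPKM + 0.1)), and both genes turned on TPM (0.40 for Stat5b and 0.14 for Stat5a).

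Among the STAT5 targets of the endocrine arm, Igfals fell in model against control, as the receptor did. Its FPKM was 53.56 and 47.60 in control livers and 21.01 and 25.09 in model livers, with no overlap, and its log2 fold change was -1.39, a fall (SE 0.34, adjusted p = 0.0248, edgeR). The DWYG-M livers had 19.33 and 40.55 and the DWYG-H livers 22.60 and 32.05, so that all 6 livers given DEN and CCl4 lay below both controls. Taken group by group, 11.9% of all tested genes lay below both controls in FPKM in the model, 7.98% in DWYG-M and 10.3% in DWYG-H. The call was lost on leaving out control replicate 1 (adjusted p = 0.0884), control replicate 2 (0.0900) or model replicate 1 (0.0850), and on TPM (-0.79, adjusted p = 0.0731).

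Igf1 itself had an FPKM of 102.01 and 84.50 in control and 70.78 and 45.90 in model livers. Both model livers lay below both controls, as they did for 11.9% of all tested genes in FPKM. The difference of -0.96 (SE 0.30) missed the threshold (adjusted p = 0.0553, edgeR). DESeq2 called it lower (adjusted p = 0.0372), and so did the fit with no filter on low values (0.00659). The DWYG-M livers, at 52.73 and 98.11, spanned nearly the whole range of the other groups, and the DWYG-H livers had 67.75 and 67.92.

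The feedback inhibitors Cish and Socs2 were set apart by their spread between the 2 control livers. Cish had an FPKM of 8.45 and 0.40 in control livers, from 413 and 19 reads. The model livers had 11.29 and 8.93, the DWYG-M livers 0.94 and 0.95, and the DWYG-H livers 1.05 and 4.29. Control replicate 1 thus sat with the model livers and control replicate 2 below every other library, and the model-control difference of 0.96 had an SE of 0.97 (adjusted p = 0.524, edgeR). Socs2 was at 9.97 and 1.48 in the control livers and 6.17 and 10.24 in the model livers. The DWYG-M livers had 3.74 and 2.87, and the DWYG-H livers 2.91 and 4.52. Its model-control difference was 0.33 (SE 0.65, adjusted p = 0.755, edgeR), with overlapping groups.

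The values of both genes depended on which control liver was used. Without control replicate 1, Cish was called higher in the model (4.29, adjusted p = 0.0312) and so was Socs2 (2.05, adjusted p = 0.0477), whereas without control replicate 2 their differences were 0.00 and -0.45; in these fits the lone control is assumed to vary like the other groups. Socs2 was also at -0.14 without model replicate 2.

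Socs3, an inhibitor induced by interleukin 6 through STAT3 as well as by growth hormone, had an FPKM of 2.38 and 2.37 in control and 8.77 and 5.96 in model livers. Both model livers were above the controls, as they were for 47.1% of all tested genes in FPKM. The difference of 1.35 (SE 0.44) was not called (adjusted p = 0.0637, edgeR). DESeq2, limma on FPKM or TPM and a fit of these 4 libraries alone did call it higher. The capsule groups held 2.66 and 4.46 (DWYG-M) and 2.09 and 5.74 (DWYG-H). In DWYG-H replicate 2, the higher of that pair, the summed FPKM of 10 T, B and NK lymphocyte markers was 31.24, against 4.71 to 12.06 in the other 7 libraries; the part of these cells in its Socs3 level was not tested.

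Bcl6, the repressor, had an FPKM of 3.38 and 14.24 in control livers and 3.29 and 1.91 in model livers. The DWYG-M livers had 10.26 and 14.81 and the DWYG-H livers 16.14 and 15.64. Control replicate 1 was near the model livers, and control replicate 2 near those given the capsules. Bcl6 fell by 2.03 in model against control (SE 0.56, adjusted p = 0.0351, edgeR), and without control replicate 2 the difference was -0.78. The call was lost in that fit and with either model liver left out. It was also lost in limma on FPKM or TPM, in a fit of these 4 libraries alone and with a replicate block. It held in 5 of 13 alternative fits, whose adjusted p ran from 2.4e-04 to 0.155.

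Cux2 was barely detected, with 1 to 16 counts and an FPKM of 0.01 to 0.14 in the 8 libraries. With no filter on low values, its model-control difference was 1.45 (SE 0.88, adjusted p = 0.298, edgeR over 17127 genes), so no difference was detectable at this depth.

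**Figure D2:**
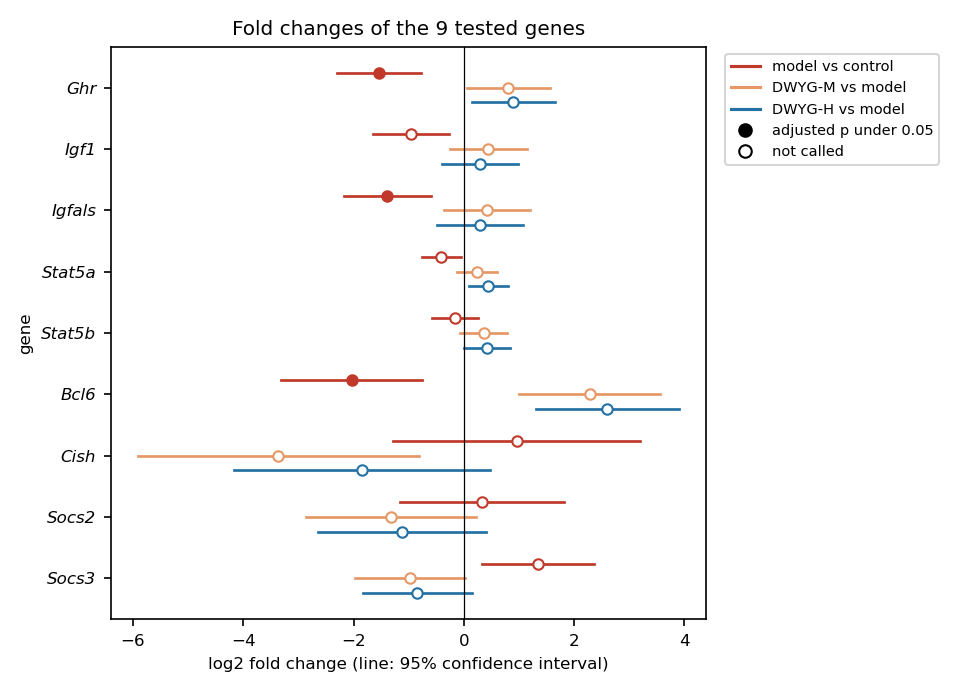
Log2 fold changes of the tested genes in model against control and in each capsule group against the model, with 95% confidence intervals from edgeR; filled points mark an adjusted p under 0.05. Ghr, Igfals and Bcl6 are filled in model against control, at -1.54, -1.39 and -2.03, and no gene is filled in the capsule comparisons.

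Cish, Socs2 and Bcl6 divided the 8 libraries in the same way. The 3 libraries highest in Cish were also the 3 highest in Socs2 and the 3 lowest in Bcl6 on the scaled counts: control replicate 1 and both model livers. The 2 control livers are labelled alike, yet Cish was 21.1-fold higher in replicate 1 by FPKM, and only 2 of 11606 genes had a larger log2 gap between them. One of these was Onecut1 (HNF6), a liver transcription factor that responds to growth hormone, with an FPKM of 8.95 and 0.38. The other was Akr1b7, a reductase, with 2.1 and 0. The control gap of Socs2 ranked 14th (2.43 on the log2 scale) and that of Bcl6 40th (-1.96, higher in replicate 2). The receptor, Igf1 and Igfals showed no such gap between the same livers (0.08, 0.14 and 0.04). What set the control livers apart in these genes was not tested.

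**Figure D3:**
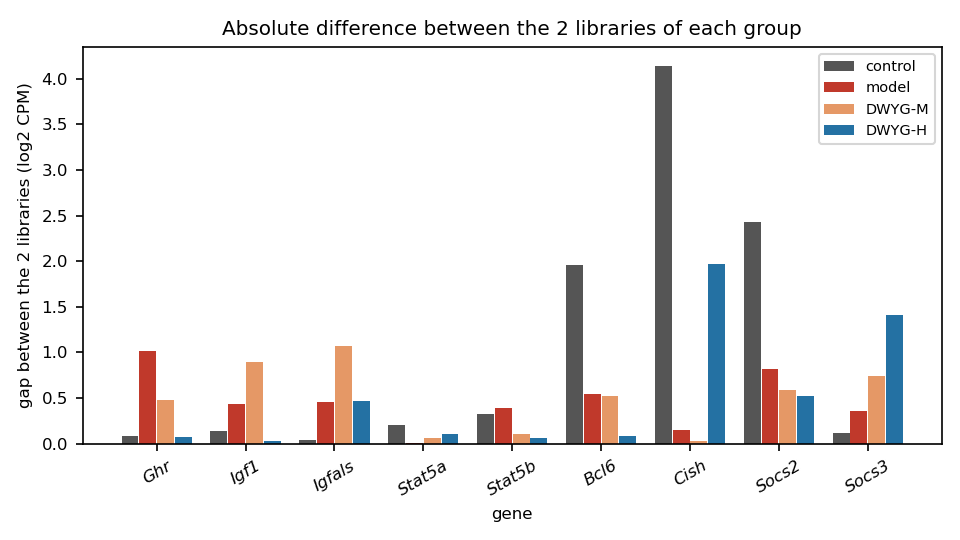
Log2 difference between the 2 livers of each group for the tested axis genes, as the absolute gap in log2 CPM (counts scaled to library depth by TMM), with 1 bar per group. In control livers the bars of Cish (4.14) and Socs2 (2.43) are the highest, and those of Ghr (0.08), Igf1 (0.14) and Igfals (0.04) are near 0.

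**Figure D4:**
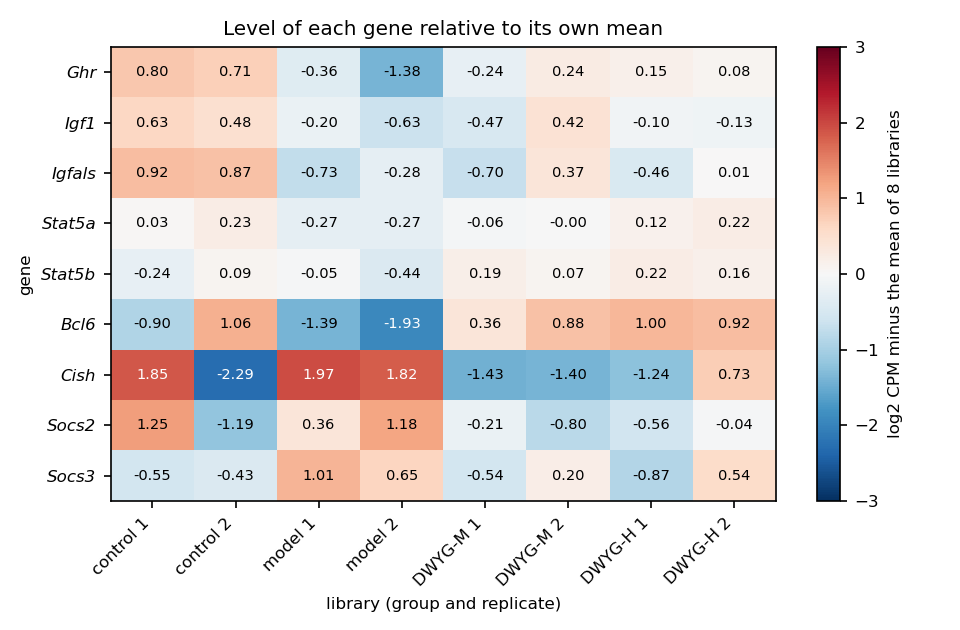
Heat map of the log2 CPM of each tested gene in each library, minus the gene's mean over the 8 libraries, with red above and blue below the mean and the value printed in each cell. Control replicate 1 and the 2 model livers are high for Cish and Socs2 and low for Bcl6, while Ghr, Igf1 and Igfals are high in both controls.

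The genes most like each of these in pattern were looked for among 4867 tested genes with a mean FPKM of at least 10, by the root mean square difference of centred log2 levels over 8 libraries. Nearest to Ghr were Ugt3a2 (0.10), Il1rap (0.10) and Pbld2 (0.11), against 0.65 for the spread of Ghr about its own mean. Nearest to Socs2 were Alas1 (0.44), the first enzyme of haem synthesis, B4galt1 (0.51) and Nrep (0.52), against an own spread of 0.83. Alas1 was also nearest to Cish (1.13), followed by Saa3 (1.22) and Hes1 (1.25), though with an own spread of 1.66 none was close. Alas1 had an FPKM of 107 and 46.2 in control livers, 173 and 142 in model livers and 54.0 to 62.2 in the capsule groups. Nearest to Bcl6 were Nat8 (0.64), Nat8f5 (0.67) and Fam47e (0.67), against 1.14.

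Both capsule comparisons share the 2 model livers. Against the model, 0 of the 9 genes was called in DWYG-M, where 0.00862% of all tested genes were (1 gene, Hsd3b5), and 0 in DWYG-H, where 0% were. At an unadjusted p under 0.05 there were 1468 and 985 genes, and DESeq2 called 206 and 120. The mean of both capsule groups against the model likewise gave 0 members, with 4 genes (0.0345%) called in all, 1618 at an unadjusted p under 0.05 and 321 by DESeq2.

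Bcl6 had the smallest p of the members in all 3 of these comparisons. All 4 capsule livers (10.26 to 16.14 FPKM) lay above both model livers (3.29 and 1.91), as they did for 7.05% of all tested genes. The log2 differences were 2.28 in DWYG-M (SE 0.56, adjusted p = 0.231, edgeR), 2.60 in DWYG-H (SE 0.56, adjusted p = 0.271) and 2.44 for the mean of both (SE 0.52, adjusted p = 0.141). DESeq2 called Bcl6 higher in each (adjusted p = 9.1e-04, 9.1e-05 and 6.2e-06). Control replicate 2 (14.24) was within the range of the capsule livers and control replicate 1 (3.38) was not.

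Of the other members, Ghr differed by 0.81 in DWYG-M (95% interval 0.06 to 1.56) and by 0.90 in DWYG-H (0.15 to 1.65), with adjusted p = 0.376 and 0.515 (edgeR). Cish differed by -3.36 in DWYG-M (-5.91 to -0.82, adjusted p = 0.299) and by -1.85 in DWYG-H (-4.16 to 0.47, adjusted p = 0.665). In a fit of the model and DWYG-M libraries alone, Cish was called lower. Igf1 and Igfals overlapped between the model and both capsule groups in FPKM.

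Socs2 and Socs3 were lower in all 4 capsule livers than in both model livers, as were 16.2% of all tested genes in FPKM. Neither was called. Socs2 differed by -1.32 in DWYG-M (95% interval -2.85 to 0.22) and -1.12 in DWYG-H (-2.65 to 0.41), with adjusted p = 0.462 and 0.697 (edgeR). Socs3 differed by -0.98 (-1.97 to 0.02) and -0.84 (-1.83 to 0.14), with adjusted p = 0.403 and 0.645. The intervals of the STAT5 genes were narrower. Stat5a differed by 0.24 in DWYG-M (-0.12 to 0.60) and 0.45 in DWYG-H (0.09 to 0.80), with adjusted p = 0.575 and 0.488 (edgeR). Stat5b differed by 0.36 in DWYG-M (-0.06 to 0.78) and 0.42 in DWYG-H (-0.0014 to 0.84), with adjusted p = 0.461 and 0.589.

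Between the doses, DWYG-H against DWYG-M, 0 of the 9 genes and 0% of all genes were called by edgeR (193 genes at an unadjusted p under 0.05, and 5 by DESeq2). The smallest p was that of Cish, which differed by 1.52 (SE 1.10, adjusted p = 1, edgeR; 95% interval -1.02 to 4.06), with 1.05 and 4.29 FPKM in DWYG-H against 0.94 and 0.95. The interval for Ghr was -0.65 to 0.84 and that for Bcl6 -0.88 to 1.52, so neither dose difference was resolved.

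Against control, whose 2 livers both comparisons share, 0 of 9 members was called in either capsule group, where 4.95% of all genes were called in DWYG-M (575) and 7.69% in DWYG-H (892). Igfals came nearest, with a difference of -0.97 in DWYG-M (SE 0.34, adjusted p = 0.167, edgeR) and -1.10 in DWYG-H (SE 0.34, adjusted p = 0.0927). It was called lower in DWYG-M on leaving out DWYG-M replicate 2, the higher of its livers, and lower in DWYG-H by DESeq2, in a fit of those 4 libraries alone and with a replicate block. Ghr was at -0.74 in DWYG-M (adjusted p = 0.270) and -0.64 in DWYG-H (adjusted p = 0.278, edgeR).

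Genes around the axis were counted from 6 pathway lists, chosen with earlier results of these data known. The counts therefore describe the lists and test nothing about the axis. Genes that are near 0 in control livers pass the filter on low values only through the livers given DEN and CCl4, so for lists that hold such genes the count is given over every listed gene, from the edgeR fit with no filter, in which 12.9% of 17127 genes rose and 5.83% fell. Of 26 genes of growth hormone receptor signalling and its modulators, 3 rose and 0 fell in model against control with no filter. All 26 were tested, and in that fit 5 rose and 0 fell (19.2%, against 22.2% of all tested genes called). Of the 26, 2 (Irs2 and Socs1) were under an FPKM of 1 in both controls and had to be higher elsewhere to be tested. The 5 were Sirpa (1.93), a receptor that recruits phosphatases, the insulin receptor substrate Irs2 (1.93), Stat3 (0.55), the ubiquitin ligase Cbl (0.59) and Socs5 (0.79). Jak2, the receptor's kinase, differed by 0.02 (SE 0.18, adjusted p = 0.941, edgeR). Of the 26, 2 rose without control replicate 1, control replicate 2 or model replicate 2. Against control, 2 of the 26 rose in each capsule group (7.69%), where 4.35% of all tested genes rose in DWYG-M and 6.59% in DWYG-H. In DWYG-M, fewer of the 26 rose with any 1 library of the compared groups left out. In DWYG-H, fewer of them rose without control replicate 2.

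Of 16 listed genes of IGF ligands, receptors, carriers and their proteases, 10 rose and 0 fell with no filter. The filter kept 12, of which 9 rose, but 4 of the 12 (Igf2, Igfbp5, Igfbp6 and Stc1) were under an FPKM of 1 in both controls and had to be higher elsewhere to be tested. Igfbp1, a binding protein that hepatocytes make under stress or fasting, went from an FPKM of 5.41 and 1.64 in control livers to 997 and 812 in model livers. It rose by 7.75 (SE 1.01, adjusted p = 0.00245, edgeR). Igfbp7 rose by 1.23 (adjusted p = 0.00176), Igfbp5 by 2.18 (adjusted p = 0.00367) and Igf2, a fetal growth factor, by 2.52 (adjusted p = 0.00546) from 0.36 and 0.19 to 1.53 and 1.80 FPKM. Igfbp5 and Igfbp7 are also made by stellate cells: the 10 stellate cell and fibroblast markers summed to 100.31 to 101.1 FPKM in control and 336.52 to 367.47 in model livers, and their part in these values was not tested. The count among the 12 was 3 without control replicate 2, 4 without control replicate 1 and 6 without model replicate 2. Against control, 4 of the 12 rose in DWYG-M and 5 in DWYG-H, where 4.35% and 6.59% of all tested genes rose. The 4 genes under an FPKM of 1 in both controls are among the 12, so the filter can raise these counts. Fewer rose with any 1 library of those groups left out.

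Of 19 listed transcription factors of the hepatic growth hormone response, 17 were tested and 3 were called (17.6%, below the 22.2% of all genes), so the list did not stand out. Of these, 1 rose and 2 fell: Trim24 by 0.72, Foxa1 with -0.65 and Cebpa with -1.09 (adjusted p = 0.0292, 0.0245 and 0.0365, edgeR). With 1 library left out, 0 to 1 rose and 0 to 1 fell. Cebpa, a hepatocyte differentiation factor, was at 140 and 147 FPKM in control and 74.8 and 87.4 in model livers. Onecut1, whose control livers lay so far apart, was at 1.94 and 3.19 FPKM in the model livers. The DWYG-M livers had 0.55 and 0.70, and the DWYG-H livers 0.93 and 1.36. Its model-control difference of -1.06 had an SE of 0.96 (adjusted p = 0.472).

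All 22 genes listed as male-biased and in need of pulsatile growth hormone and STAT5B were tested, a need that was not measured here. All 22 fell in the model, with a median of -2.54, where 7.12% of all tested genes fell. The list was chosen with earlier results of these data known. The steroid dehydrogenase Hsd3b5 went from an FPKM of 241 and 171 to 0.86 and 0.45 (-8.57, SE 0.34, adjusted p = 8.1e-05, edgeR). The transporter Slco1a1 (-4.53), Ugt2b38 (-4.80) and Cyp4a12a (-2.35) fell too. The count was 18 to 22 with 1 library left out. Against control 13 fell in DWYG-M and 16 in DWYG-H, where 0.603% and 1.09% of all tested genes fell. With any 1 library of those groups left out, fewer of the list and fewer of all genes were called. The list median then ran from -1.98 to -1.54 in DWYG-M and from -2.17 to -1.88 in DWYG-H, against -1.69 and -1.95 with all libraries. Hsd3b5 rose by 4.50 in DWYG-M against the model (SE 0.31, adjusted p = 0.0065), to 12.18 and 16.00 FPKM.

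Of 24 listed female-biased genes, 16 rose in the model and 0 fell with no filter. The filter left out 9 of the 24; of the 15 tested, 12 rose, but 8 of these were under an FPKM of 1 in both controls. Prom1 (5.51), Atp6v0d2 (3.87) and Cyp2b9 (8.90) were among those 8. Prom1 also marks bile duct and progenitor cells: the 8 cholangiocyte markers summed to 45.06 to 47.07 FPKM in control and 326.64 to 467.9 in model livers. Most of the sum was Spp1, at 33.71 to 430.36 FPKM over all libraries, while no other of these markers passed 10.1. The part of bile duct and progenitor cells in the Prom1 level was not tested. Cyp2a4 was at 0.04 and 0 in control and 548 and 1074 FPKM in model livers, with reads that its near-identical copy Cyp2a5 may share. Cux2, which is female-biased in mouse liver, stayed near its detection limit in all of them. Without control replicate 2, 7 of the 15 rose, and 8 to 11 with another library left out. Against control, 9 of the 15 rose in DWYG-M and 12 in DWYG-H, where 4.35% and 6.59% of all tested genes rose. The 8 genes under an FPKM of 1 in both controls are among the 15, so the filter can raise these counts. Fewer of the 15 rose with any 1 library of those groups left out, and fewer of all genes were called.

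Of 31 listed interleukin 6 family receptors and STAT3 acute phase targets, 11 rose and 1 fell with no filter, and of the 29 tested 13 rose, 3 of them (Osmr, Timp1 and Il1rn) from under an FPKM of 1 in both controls. Osmr, the oncostatin M receptor, rose by 2.54 (SE 0.18, adjusted p = 4.3e-04, edgeR), and Lifr, the receptor of leukaemia inhibitory factor, fell by 1.54 (SE 0.16, adjusted p = 0.00123). Lcn2, an acute phase protein, rose by 8.42 and Junb by 2.03. Neutrophils also hold Lcn2, and the 8 neutrophil markers summed to 8.48 to 13.01 FPKM in control and 57.21 to 202.86 in model livers, with Ly6g at 0 in 4 of the 8 libraries; their part was not tested. Of the 29, 6 rose without control replicate 2 and 7 without control replicate 1. Against control, 6 of the 29 rose and 1 fell in DWYG-M, where 4.35% of all tested genes rose and 0.603% fell. In DWYG-H 5 rose and 1 fell, where 6.59% rose and 1.09% fell. The 3 genes under an FPKM of 1 in both controls are among the 29, so the filter can raise these counts. Fewer rose with any 1 library of those groups left out.

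**Figure D5:**
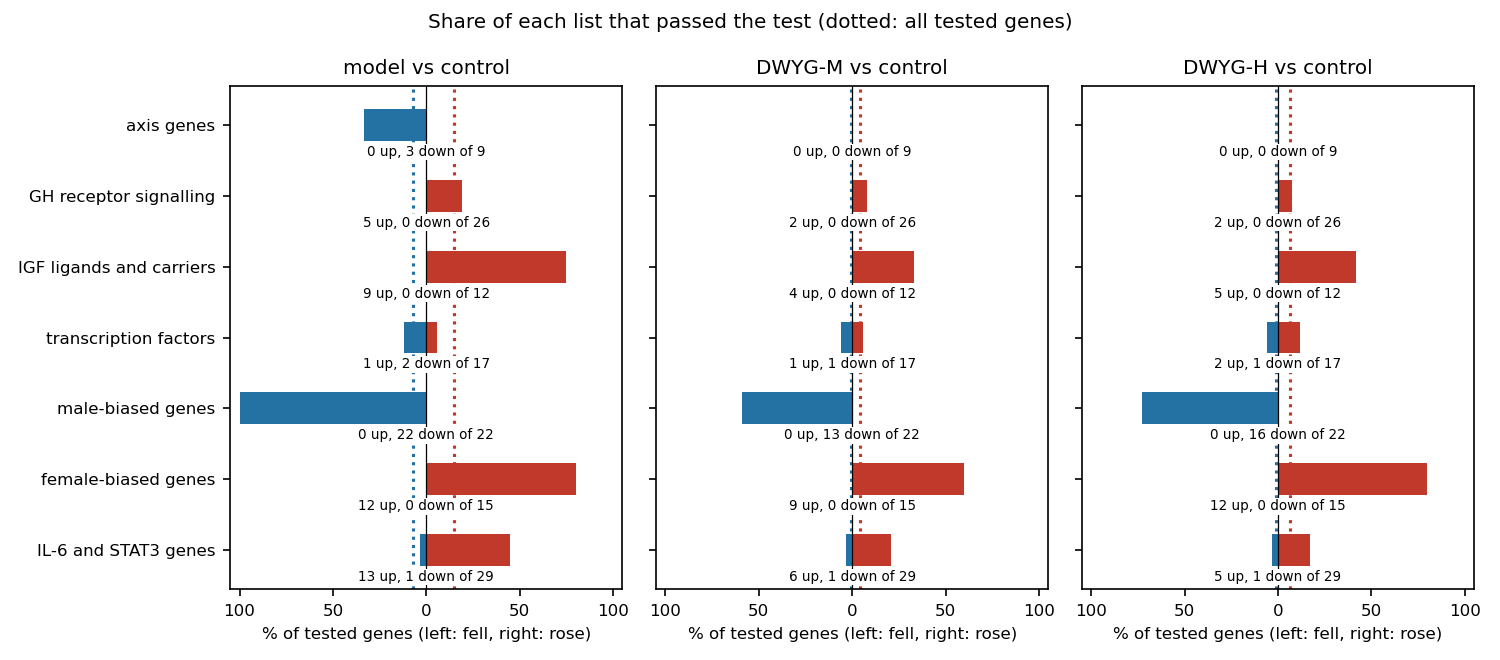
Share of the tested genes of each list that rose (right) or fell (left) in the model and in each capsule group against control, with the counts printed and the share over all tested genes dotted. The male-biased list lies wholly on the left in model against control (22 of 22). Of the female-biased bar on the right (12 of 15), 8 genes passed the filter only through livers other than the controls. The lists were chosen with earlier results of these data known.

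Markers of other cell types were counted in model against control over every listed gene in the table with reads, again with no filter and beside the 12.9% of all genes that rose. Of these, 8 of 10 rose for stellate cells and fibroblasts, 7 of 8 for cholangiocytes, 6 of 6 for dividing cells and 5 of 8 for neutrophils. All 6 dividing cell markers were under an FPKM of 1 in both controls. For macrophages and Kupffer cells, 4 rose and 2 fell of 10. Endothelial markers, with 1 of 10, and lymphocyte markers, with 0 of 10, did not exceed the background. Of 10 hepatocyte markers, 0 rose and 1 fell (Apoa2). The part of any of these cells in the values of the axis genes was not tested.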

How the data were processed

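RNA sequencing of whole liver was analysed in 8 libraries. The labels' protocols name an Ambion kit for RNA, of which 2 µg per sample went into Takara's SMART-Seq mRNA LP kit. The submitters' processing notes name GRCm39; how reads were aligned and counted, with which annotation and with or without strand, is not given in the sources used here. The read counts deposited by the authors are estimated counts: 89.8% to 91.5% per library were whole within 0.005, and they were rounded here. FPKM values were deposited too and are scaled to length and depth, per the file headers. The deposited TPM values served as an alternative. The signal values that the authors deposited as normalized read counts were not used.

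The test was edgeR's (4.0.16, R 4.3.3) quasi-likelihood test, TMM scaling, genes reaching an FPKM of 1 in at least 2 libraries, in 1 model of 4 groups over 8 libraries (4 residual degrees of freedom, common dispersion 0.0377), with 7 contrasts, Benjamini-Hochberg adjustment over 11606 genes and calls at an adjusted p under 0.05. The SE is the fold change over the root of F. It was tested on simulated data. DESeq2 1.42.0, limma 3.58.1 on log2(value + pseudocount) of FPKM (1 or 0.1) and TPM (1), other scalings, no filter, a replicate block and leaving out each library were alternatives. Promoter windows come from RefSeq (GRCm38.p6), matched by symbol for 9 of 10 genes, and are not on the build of the data.

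The members and gene lists were chosen with earlier results of these data known. Named were all members in model against control; elsewhere the called members or, with none, that of the smallest p; up to 4 called genes of smallest p per pathway list; and 3 genes of like pattern for the 4 members of widest range. Other values and genes given, such as the other members against the model, Socs5, Igfbp1's levels, Onecut1, Akr1b7 and Jak2, were chosen after they were seen. The list counts with a library left out or with no filter were also added after the data were seen. The 2 libraries of a group are separate mice.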

Additional observations from a re-analysis of the deposited data

How the results depend on the processing

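Of the 9 tested members, 3 were called in model against control, and 5 were by DESeq2 and with no filter on low values, the additions being Igf1 (lower) and Socs3 (higher). Leaving out 1 library gave 0 to 3, with 0 without control replicate 2 and 1 without model replicate 1. Against the model, DESeq2 called 1 member in DWYG-M, in DWYG-H and in the mean of both (Bcl6), and a fit of the compared groups alone called 1 in DWYG-M (Cish); leaving out a library left 0. Against control, DWYG-M had 0 to 1 on leaving out a library, and DWYG-H had 1 by DESeq2, on log2(TPM + 1) (Stat5b, higher), with the compared groups alone and with the replicate block. In model against control the sign turned for Stat5b (0.10, 0.11 and 0.40 on FPKM with a pseudocount of 1 or 0.1 and on TPM; -0.35 to 0.025 with a library left out), Stat5a (0.14 on TPM) and Socs2 (-0.45 to 2.05 with a library left out). The median of all genes was 0.21, 0.25 and 0.50 on these 3 scales, against -0.01, so Stat5b lay below it on each. Cish ranged from 0.00 to 4.29 with a library left out. The cause was not tested.

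The labels do not say that replicate numbers pair the mice, and the correlations of deviations of same-numbered livers ran from -0.143 to 0.255. With a replicate block, 2 members were called in model against control (Ghr and Igfals; Bcl6 was at -1.87, adjusted p = 0.0569, edgeR) and 2682 genes.

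Counts of genes called ranged over the alternatives from 812 to 5448 in model against control (2582), 39 to 2820 in DWYG-M against control (575), 77 to 3369 in DWYG-H against control (892), 0 to 206 in DWYG-M (1), 0 to 120 in DWYG-H (0) and 0 to 321 in the mean of both (4) against the model, and 0 to 5 between the doses (0). Depth limits Cux2 above all, with at most 16 counts in a library.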
